A study of Mus musculus with 12 samples.

Results

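Zc3h12a, Zfp36, Zfp36l1, Zfp36l2, Elavl1 and Rc3h1 encode RNA-binding proteins that set how long cytokine messengers last, and their own transcripts are described here in mouse macrophages responding to the lipopeptide MALP-2. The 6 genes were chosen by name, as regulators of messenger stability, from 18194 genes on the array, and all 6 were measured. Where a gene had several probesets, the main one was that with the highest mean when double knockout 0 h was set aside, which left 11 of the 12 arrays. They are set beside 3 messengers whose levels fell between 2 and 8 h of MALP-2 without IRAK2, namely Il6, Tnf and Cxcl1. The cells were peritoneal macrophages drawn into the cavity with thioglycollate, and came from wild-type mice, from IRAK2 KO mice (IRAK-2-/-) and from IRAK1/IRAK2 KO mice, called the double knockout here. Each genotype was sampled without stimulus (0 h) and after 2, 4 and 8 h of MALP-2 at 100 ng/ml, with 1 array per genotype and time. The sources used here do not give the strain, the age, or whether RNA of several mice was pooled.

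Messengers of inflammatory cytokines carry AU-rich stretches and small hairpins in their untranslated tails, and the proteins that read these elements decide whether the messenger is destroyed or kept. Zc3h12a encodes Regnase-1, a nuclease that cuts at hairpins, and Rc3h1 encodes Roquin-1, which binds hairpins and brings in the deadenylase complex. Zfp36 encodes tristetraprolin, which with its relatives Zfp36l1 and Zfp36l2 binds AU-rich stretches and promotes decay, while Elavl1 encodes HuR, which competes for AU-rich stretches and mostly stabilizes. The proteins are also controlled by phosphorylation, cleavage and turnover, which an RNA array does not see, and a transcript level is the outcome of synthesis and decay together.

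All values are log2 values of the deposited table. The floor is 3.83, the median of all values of the 11 arrays, and a value near it has no reliable size. The double knockout 0 h array stood apart: it correlated with the other arrays at 0.764 to 0.804, while the other 11 correlated with each other at 0.954 or more. Its Irak1 probeset read 10.84 against 8.46 to 8.59 in wild type, so it is called the array labelled double knockout 0 h. The stimulated double knockout arrays had Irak1 values of 8.11 to 8.31; the sources used here do not say where this probeset lies relative to the deleted segment. Irak2 read 5.77 to 6.69 in wild type. Without IRAK2 it read 4.65 to 5.63, and on the stimulated double knockout arrays 4.61 to 5.19. All 8 macrophage markers were at or above the floor on 10 of the 11 arrays, and 7 of 8 on the remaining one. Of 9 neutrophil markers on the array, Ngp, Cxcr2, Elane and Mpo were under the floor on all 11.

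The 250 bases before the transcription start were read for 4 motifs, because 4 of the 6 members rose within 2 h of MALP-2 and 2 fell. RefSeq promoters (GRCm38.p6) were found for Zc3h12a, Zfp36, Zfp36l1, Elavl1, Rc3h1, Il6, Tnf and Cxcl1. Both strands were searched for the NF-kB consensus, the AP-1 site TGANTCA, the GAS element TTCNNNGAA bound by STAT factors, and the SRF CArG box. Of 32851 windows of the same length, 7.25% held the NF-kB consensus, 6.75% TGANTCA, 7.02% TTCNNNGAA and 1.47% the CArG box. The NF-kB consensus was found in the windows of Il6 and Cxcl1 (in Cxcl1 as overlapping matches on opposite strands) and in none of the members' windows or that of Tnf. Zfp36 held a CArG box at positions -58 to -49 from the start and a GAS element at -17 to -9. Zfp36l1, Rc3h1 and Il6 each held TGANTCA, and Zc3h12a, Elavl1 and Tnf held none of the 4. A match describes letters only, and no match says nothing about a factor's binding elsewhere. The windows below are those of the strongest riser among the members, of tristetraprolin, and of the pair of cytokine genes with the NF-kB consensus. They lie at chr4:125127882-125128131 (minus strand), chr7:28379229-28379478 (minus strand), chr5:30012864-30013113 (plus strand) and chr5:90890995-90891244 (plus strand), run 5′ to 3′, and have the motif matches in capitals.
Zc3h12a: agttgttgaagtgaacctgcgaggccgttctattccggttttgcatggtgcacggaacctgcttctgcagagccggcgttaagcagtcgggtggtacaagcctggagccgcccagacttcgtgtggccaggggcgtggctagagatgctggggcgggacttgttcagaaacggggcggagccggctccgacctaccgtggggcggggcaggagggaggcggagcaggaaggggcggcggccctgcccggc
Zfp36: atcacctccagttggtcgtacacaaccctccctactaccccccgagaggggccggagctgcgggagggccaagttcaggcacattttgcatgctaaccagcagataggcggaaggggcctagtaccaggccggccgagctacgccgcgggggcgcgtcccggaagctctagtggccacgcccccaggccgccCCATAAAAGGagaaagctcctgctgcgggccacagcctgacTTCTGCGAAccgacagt
Il6: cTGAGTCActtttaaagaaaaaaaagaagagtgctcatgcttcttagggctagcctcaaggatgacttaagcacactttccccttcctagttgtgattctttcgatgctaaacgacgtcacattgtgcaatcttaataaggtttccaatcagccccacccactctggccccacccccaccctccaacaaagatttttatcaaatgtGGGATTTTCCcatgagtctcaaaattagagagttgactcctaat
Cxcl1: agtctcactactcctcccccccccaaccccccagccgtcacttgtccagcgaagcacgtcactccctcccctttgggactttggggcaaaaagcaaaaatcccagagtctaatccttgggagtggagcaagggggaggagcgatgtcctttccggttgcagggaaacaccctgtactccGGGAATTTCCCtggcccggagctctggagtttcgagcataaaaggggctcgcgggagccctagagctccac

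Among the readers of hairpins, the Regnase-1 gene answered MALP-2 strongly and the Roquin-1 gene only briefly. Zc3h12a read 5.25 in wild type at 0 h, then 8.89, 8.41 and 7.98 at 2, 4 and 8 h. In the IRAK2 knockout it read 4.76, then 8.71, 7.27 and 6.53, so it reached nearly the wild-type level at 2 h and lay lower later. The double knockout values were 4.45 on the array labelled 0 h, then 5.82, 5.60 and 5.43, below every stimulated array of the other genotypes. Its other probeset (1443993_at) read 3.72 to 4.48 over the 12 arrays, near the floor, with genotype differences over the stimulated times of the same sign and smaller size. Rc3h1 was highest at 2 h in wild type (8.97, then 9.65, 8.90 and 8.68) and also without IRAK2 (8.69, then 9.29, 8.35 and 8.16). Double knockout values of Rc3h1 were 8.18 on the array labelled 0 h and then 8.97, 8.79 and 8.95, nearly level after the stimulus.

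The 3 tristetraprolin family genes moved in different directions. Zfp36 was slightly higher at 2 h, while Zfp36l1 and Zfp36l2 fell. Zfp36 read 7.37, then 7.83, 7.70 and 7.20 in wild type. Without IRAK2 it read 7.16, then 7.96, 7.48 and 6.53. On the stimulated double knockout arrays it read 7.73, 7.26 and 6.78 at 2, 4 and 8 h, near the other genotypes, whereas the array labelled 0 h read 3.95, near the floor. Zfp36 is thus highest at 2 h and lowest at 8 h among the stimulated arrays of each genotype. Zfp36l1 read 10.48, then 9.24, 8.57 and 8.60 in wild type. Without IRAK2 it read 10.09, then 9.13, 8.08 and 7.97. Its double knockout values were 10.39, then 8.70, 8.48 and 8.76; every stimulated value of this gene was below every 0 h value. Zfp36l2 dipped at 2 h and came back: it read 10.56, then 9.52, 10.08 and 10.35 in wild type, and without IRAK2 it read 10.51, then 9.48, 9.77 and 9.998. On the stimulated double knockout arrays it read 9.82, 10.15 and 10.52, also climbing from 2 to 8 h, while the array labelled 0 h read 7.16.

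Elavl1, the stabilizer of the group, was moderately higher after MALP-2 in wild type, at 8.94, then 9.61, 9.93 and 9.65. In the IRAK2 knockout it read 9.04, then 9.59, 9.66 and 9.22. It read 6.88 on the array labelled double knockout 0 h, then 8.80, 8.66 and 8.34, and these stimulated values are below those of both other genotypes at every time, including 0 h.

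**Figure D1:**
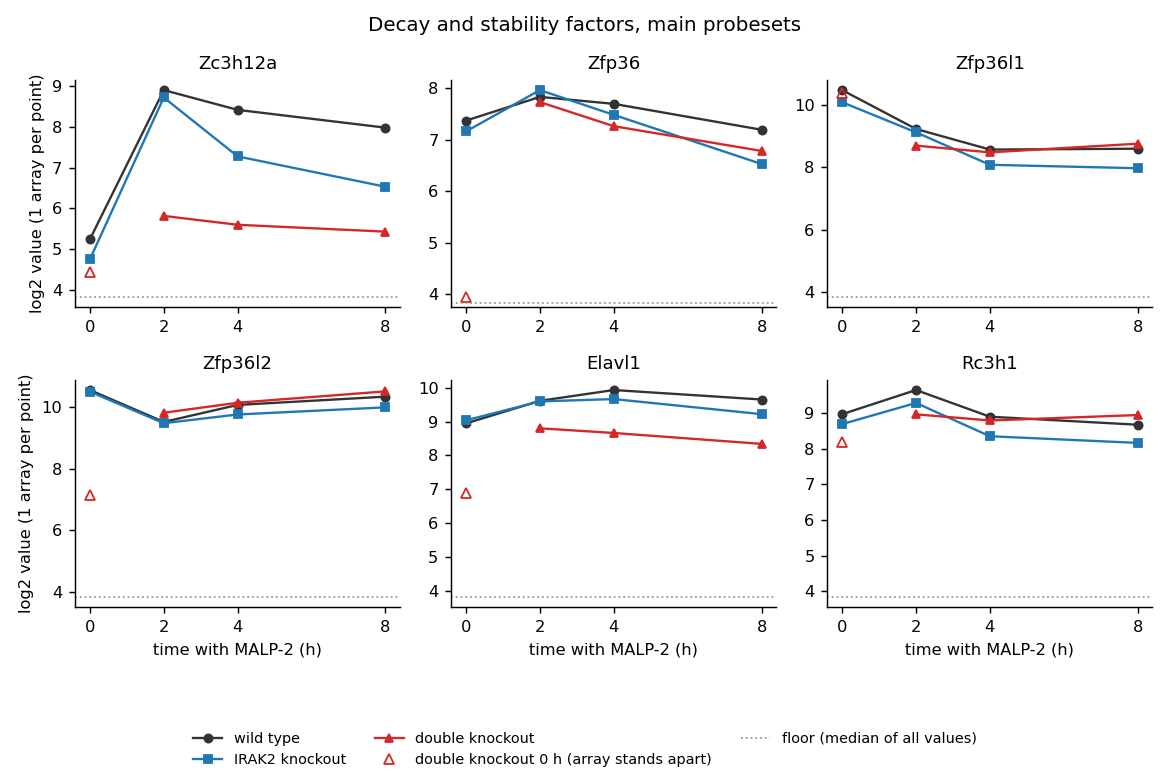
Log2 values of the main probesets of the 6 decay and stability genes against hours with MALP-2, 1 array per point, for wild type (circles), IRAK2 knockout (squares) and double knockout (triangles; the open triangle is the array labelled 0 h, which stands apart). Zc3h12a stays between 5.43 and 5.82 in the stimulated double knockout, and Zfp36l1 falls in all 3 genotypes.

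The response to MALP-2 was tested in wild type and IRAK2 knockout together with limma, over 8 arrays with genotype and time as additive terms. At 2 h the test called 4 members higher than at 0 h (Zc3h12a, Zfp36, Elavl1 and Rc3h1) and 2 lower (Zfp36l1 and Zfp36l2), where 45.3% of 10801 genes were called in either direction. With 1 array per group, p-values weigh a change against its constancy over the genotypes fitted and not against the spread between mice. Zc3h12a rose by 3.80 log2 at 2 h (SE 0.27, adjusted p 3.20e-05), 2.84 at 4 h (1.47e-04) and 2.25 at 8 h (6.27e-04). Zfp36 rose at 2 h by 0.63 (SE 0.17, adjusted p 0.0186), and its differences of 0.32 at 4 h and -0.40 at 8 h did not pass (0.175 and 0.113). Zfp36l1 was lower by -1.11, -1.96 and -2.003 (adjusted p 4.46e-04, 4.07e-05 and 4.09e-05), the largest fall among the members. Zfp36l2 was lower by -1.03 at 2 h (3.49e-04) and -0.61 at 4 h (0.0050), with -0.36 at 8 h just missing the threshold (0.0534). Elavl1 was higher by 0.61, 0.80 and 0.44 (0.0094, 0.0029 and 0.0461), and Rc3h1 by 0.64 at 2 h (0.0026) and then lower by -0.41 at 8 h (0.0249). At 4 h Rc3h1 differed by -0.21 (0.186). In all, 4 members passed at 4 h (Zc3h12a, Zfp36l1, Zfp36l2 and Elavl1) against 40.4% of all genes. At 8 h 4 passed (Zc3h12a, Zfp36l1, Elavl1 and Rc3h1) against 32.8%. The Elavl1 call at 8 h was lost without a filter (0.0530). That call and the Rc3h1 calls at 2 and 8 h were lost when the stimulated double knockout arrays joined the fit (adjusted p 0.0725, 0.131 and 0.431). Read from the mean of all probesets of the gene, Elavl1 at 2 and 8 h (0.0525 and 0.125) and Zfp36l2 at 4 h (0.328) were lost as well.

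Counted by size, Zc3h12a was the 1 member at least 2-fold higher than at 0 h in wild type at 2, 4 and 8 h, where 5.41%, 5.34% and 5.06% of measured genes were. Without IRAK2 it was again the 1 member, beside 4.65%, 4.26% and 3.21%. Zfp36l1 was at least 2-fold lower in wild type at all 3 times and Zfp36l2 at 2 h, where 7.67%, 6.93% and 5.65% of genes were. Without IRAK2 the 1 member that low was Zfp36l2 at 2 h and Zfp36l1 at 4 and 8 h, beside 5.38%, 5% and 2.95%.

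**Figure D2:**
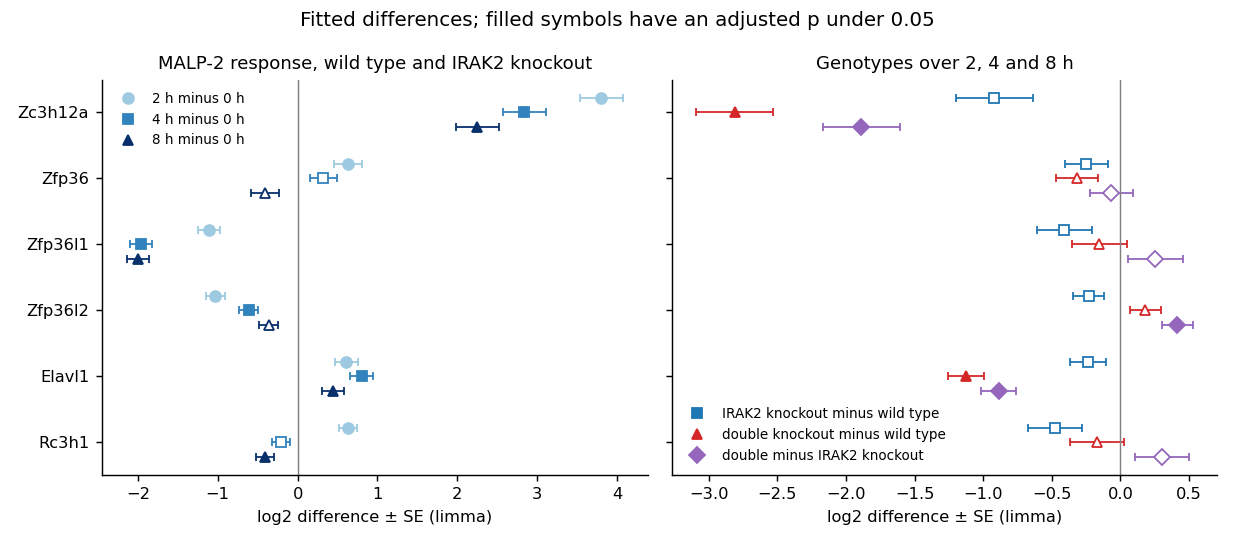
Log2 differences of the 6 members from limma with SE bars, for the response to MALP-2 over wild type and IRAK2 knockout (left) and for genotypes over the stimulated times (right); filled symbols have an adjusted p under 0.05. No member is filled for the IRAK2 knockout against wild type. Zc3h12a and Elavl1 are filled for the double knockout against both other genotypes, and Zfp36l2 against the IRAK2 knockout only.

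The IRAK2 knockout had members near wild type at 2 h and all below it at 4 and 8 h, times at which Il6, Tnf and Cxcl1 were lower too. None of the decay-promoting members (Zc3h12a, Zfp36, Zfp36l1, Zfp36l2 and Rc3h1) was more abundant than in wild type at 4 or 8 h. Decay genes outside the members went both ways. At 8 h Tob1 read 7.55 without IRAK2 against 6.54 in wild type and Khsrp 10.62 against 9.88, while Noct read 6.45 against 7.27. Il6 read 6.36, 7.98 and 8.98 in wild type at 2, 4 and 8 h and 5.79, 4.82 and 3.75 in the IRAK2 knockout, so it climbed in one and sank to the floor in the other. Tnf read 10.99, 11.39 and 11.35 in wild type. Without IRAK2 it read 11.02, 10.71 and 10.08, level at first and lower later. Cxcl1, which encodes a neutrophil attractant, read 12.36, 12.46 and 12.63 in wild type against 11.87, 10.77 and 9.07. At 8 h the knockout differed from wild type by -1.27 log2 for Tnf and -3.57 for Cxcl1. Il6 was under the floor there, so its difference of -5.14 is computed with the knockout set at the floor and is the smallest size it can have. At the same time the differences of the members were -1.44 for Zc3h12a, -0.66 for Zfp36, -0.63 for Zfp36l1, -0.51 for Rc3h1, -0.43 for Elavl1 and -0.35 for Zfp36l2. Zc3h12a was the 1 member at least 2-fold lower, where 1.21% of 11367 measured genes were. The members' median was -0.57 at 8 h, beside -0.01 over all measured genes, of which 51.1% were lower by any amount. At 2 h 5 of 6 were lower (42.6% of genes), between -0.36 and -0.02, Zfp36 stood at 0.13, and the median was -0.07 (0.04 over all genes). None was 2-fold lower then (0.286% of genes). At 4 h all 6 were lower (45.8% of genes), with a median of -0.40, and Zc3h12a at -1.14 was the 1 member at least 2-fold lower (0.528% of genes). Before any stimulus 5 of 6 were lower too (51.8% of genes), with Zc3h12a at -0.49, Zfp36l1 at -0.39, Rc3h1 at -0.28 and a median of -0.24. The summed linear level of 6 B cell markers also differed between these genotypes, at 163 to 327 on the wild-type arrays and 109 to 138 on the IRAK2 knockout arrays. Pax5 was under the floor on all 11, and 5 markers against 3 or 4 were at or above it. Ighm was the largest value in each of these sums, at 6.37 to 7.92 in wild type and 5.36 to 5.95 without IRAK2. No other marker of this list read above 4.89 on these arrays. The part of these markers in the members' differences was not tested.

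The stimulated times were tested with genotype and time as additive terms on 9 arrays. There limma called 0 of 6 members between the IRAK2 knockout and wild type, where 0.765% of 10854 genes were called. Il6, Tnf and Cxcl1 were not called either (adjusted p 0.101, 0.616 and 0.198). A gap that grows with time counts partly as residual spread in this fit. An unadjusted p under 0.05 was given for 2 of 6 members, Zc3h12a (-0.92, SE 0.28, p 0.0099, adjusted p 0.209) and Rc3h1 (-0.47, SE 0.20, p 0.0397, adjusted p 0.339). With only these genotypes in the fit both passed (adjusted p 0.0480 and 0.0342, with 553 genes called instead of 83). The fit of genotype slopes on log2 time asks whether the gap to wild type changed from 2 to 8 h. It too called 0 of 6 members (0.00921% of all genes, 1 gene, Il6), and neither Tnf (adjusted p 0.796) nor Cxcl1 (0.555). The gap of Zc3h12a changed by -0.63 log2 per doubling of time (SE 0.15, p 0.0039, adjusted p 0.961) and that of Zfp36 by -0.40 (SE 0.13, p 0.0208, adjusted p 0.961). From 2 to 8 h these gaps moved by -1.26 and -0.80, beside -3.08 for Cxcl1, -1.31 for Tnf and at least -4.57 for Il6, again with the floor as a bound.

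**Figure D3:**
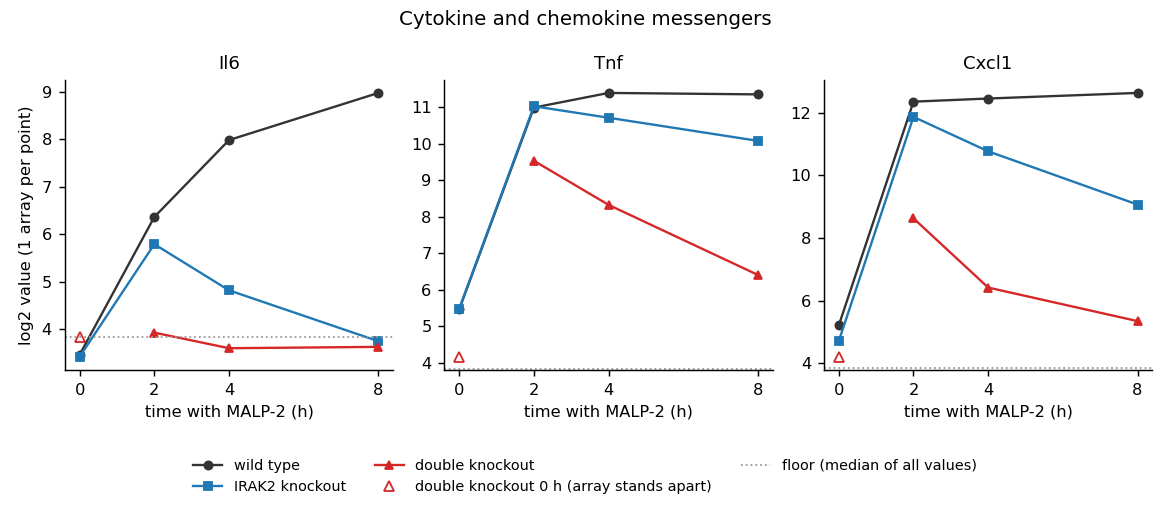
Log2 values of Il6, Tnf and Cxcl1 against hours with MALP-2, 1 array per point, for the same 3 genotypes; the dotted line is the floor of 3.83. Wild-type values stay level or climb after 2 h, while those of both knockouts fall, except Il6 in the double knockout, which stays near the floor.

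Within the IRAK2 knockout 4 of the decay factors, like the cytokines, had less transcript at 8 h than at 2 h. From 2 to 8 h Zc3h12a changed by -2.18, Zfp36 by -1.43, Zfp36l1 by -1.15 and Rc3h1 by -1.12, so 4 of 6 members were at least 2-fold lower at 8 h, where 3.03% of 11431 genes were. In wild type the same genes changed by -0.92, -0.64, -0.63 and -0.98, and 0 of 6 reached 2-fold (2.77% of 11215 genes). The difference between the genotypes in this decline is what the slope fit tests, and no member passed it. Elavl1 changed by -0.38 in the knockout and by 0.04 with IRAK2 present. Zfp36l2, recovering from its dip, changed by 0.52 and 0.82. Tnf and Cxcl1 changed by -0.95 and -2.80 in the knockout, and Il6 by at least -1.96, from 2 h to the floor. With IRAK2 present Il6 changed by 2.61, Tnf by 0.36 and Cxcl1 by 0.28.

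**Figure D4:**
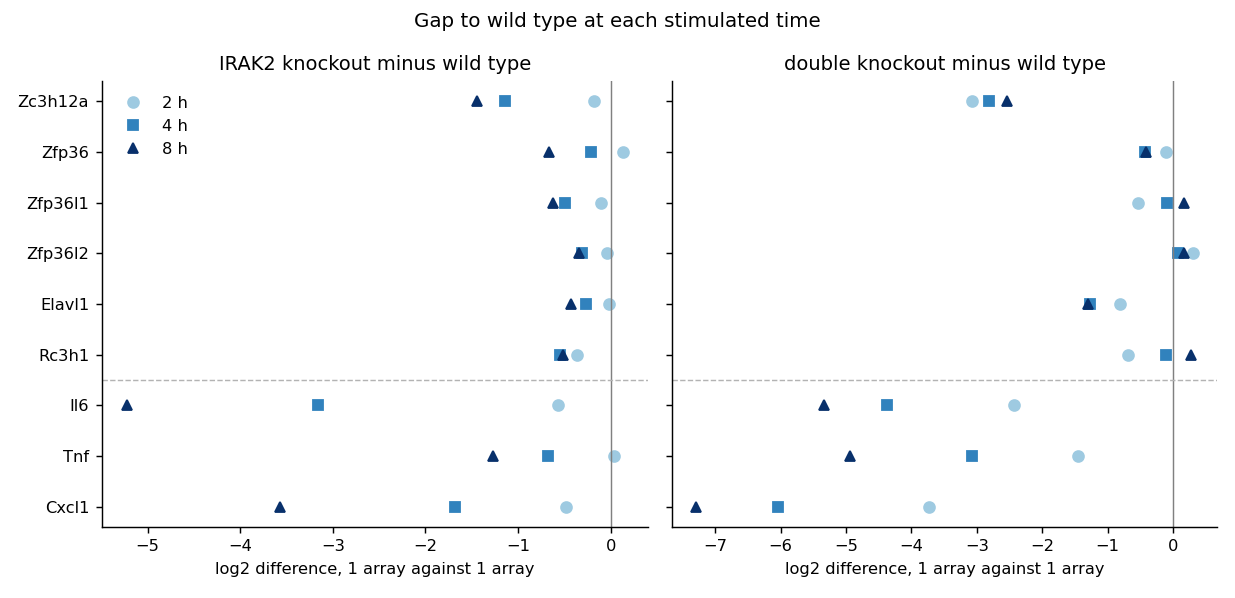
Log2 difference from wild type at 2, 4 and 8 h for the 6 members (above the dashed line) and 3 cytokine messengers (below it), IRAK2 knockout on the left and double knockout on the right, 1 array against 1 array. Il6 is plotted as measured, though it was under the floor in the IRAK2 knockout at 8 h and near it in the double knockout. In the IRAK2 knockout all 6 members lie left of 0 at 8 h, and in the double knockout Zc3h12a and Elavl1 lie left of 0 at every time.

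With IRAK1 lost as well, the members parted. Zc3h12a and Elavl1 were lower than in wild type, while the differences of Zfp36, Zfp36l1, Zfp36l2 and Rc3h1 from wild type did not pass the test. Zc3h12a was lower than in wild type over the stimulated times by -2.81 log2 (SE 0.28, adjusted p 2.00e-04) and lower than in the IRAK2 knockout by -1.89 (SE 0.28, adjusted p 0.0013). Elavl1 was lower by -1.13 (SE 0.13, adjusted p 3.53e-04) and -0.89 (SE 0.13, adjusted p 0.0011). Against wild type, differences were -0.32 for Zfp36 (adjusted p 0.134), -0.15 for Zfp36l1 (0.566), 0.18 for Zfp36l2 (0.227) and -0.17 for Rc3h1 (0.514). Against the IRAK2 knockout, Zfp36l2 was higher by 0.41 (SE 0.11, adjusted p 0.0189), a call lost when any 1 of the stimulated times was left out (0.0563, 0.134 and 0.0760 without 2, 4 and 8 h) and turned to -0.014 (0.923) with the mean of its probesets. Calls of 2 of 6 members against wild type stand beside 41.1% of all genes, and 3 of 6 against the IRAK2 knockout beside 38.8%, so calls were common among all genes. At 2 h Zc3h12a was -3.08 from wild type, and the 2-fold threshold was passed downwards by 1 of 6 members (4.5% of genes), then by 2 of 6 at 4 h (6.14%) and at 8 h (4.89%), Zc3h12a and Elavl1.

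Array quality and cell markers moved with this genotype. On its 3 stimulated arrays the 5′ minus 3′ difference was -4.68 to -3.87 for actin and -5.90 to -4.36 for Gapdh, against -3.72 to -3.18 and -3.84 to -3.42 on the 8 arrays of the other genotypes. The summed linear level of the 9 neutrophil markers was 869 to 904 on these 3 arrays. It was 1883 to 2729 in stimulated wild type and 1693 to 2242 in the stimulated IRAK2 knockout. On each array 4 or 5 of 9 were at or above the floor. S100a8 was the largest value in each of these sums, at 9.09 to 9.41 on these 3 arrays and 10.67 to 11.03 in stimulated wild type. Camp and Csf3r were also lower than in wild type. Mmp9 read 6.43, 6.99 and 7.87 at 2, 4 and 8 h, against 6.37, 7.32 and 8.45. Eosinophil and mast cell markers summed to 252 to 324 on the 3 arrays, against 121 to 191 on the other 6 stimulated arrays. Of these markers 2 or 3 of 7 were at or above the floor, and Prg2, Epx, Mcpt4 and Ms4a2 were under it on all 11. Siglecf was the largest value in each of these sums, at 7.36 to 7.81 on the 3 arrays and 5.76 to 6.87 on the other 6. The part of array quality and of these markers in the differences of Zc3h12a and Elavl1 was not tested. In whole-culture RNA fewer cells of a type and less RNA per cell cannot be told apart.

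Responses of the double knockout depend on the baseline. Against the array labelled 0 h, which stood apart, 4 of 6 members were at least 2-fold higher at 2 h (Zc3h12a 1.37, Zfp36 3.79, Zfp36l2 2.66 and Elavl1 1.92), where 31% of all genes were, and Zfp36l1 was lower by -1.69 (11.4% of genes). At 4 and 8 h 4 and 3 members were that much higher (32.5% and 34.8%), and Zfp36l1 was again the 1 lower (11% and 11.2%). A substitute baseline was the average of the unstimulated arrays of both other genotypes. Against it none was at least 2-fold higher at 2, 4 or 8 h (4.22%, 4.57% and 3.42% of genes), and Zfp36l1 was the 1 member at least 2-fold lower (5.99%, 5.77% and 3.15%). On this substitute baseline Zc3h12a read 0.82, 0.60 and 0.43 higher at 2, 4 and 8 h, and Elavl1 -0.19, -0.33 and -0.65. Values on this baseline mix the response with whatever separates the genotypes before stimulation. Zfp36l1 read -1.59, -1.81 and -1.53, and among the members its fall at 4 and 8 h is the 1 response of at least 2-fold found in all 3 genotypes and on either baseline.

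The Tnf and Cxcl1 messengers of the double knockout sank between 2 and 8 h, and the members lay on both sides of wild type. Zfp36 differed from wild type by -0.43 to -0.10 over these times. At 8 h Zc3h12a differed by -2.54 and the stabilizer Elavl1 by -1.31, while the main probesets of Zfp36l1, Zfp36l2 and Rc3h1 differed by 0.16, 0.17 and 0.27. The second Zfp36l2 probeset (1439054_at) was lower than in wild type there, at 5.43 against 5.65. Tnf read 9.53, 8.32 and 6.40 and Cxcl1 8.63, 6.42 and 5.35 at 2, 4 and 8 h, changes of -3.13 and -3.28 from 2 to 8 h. Over the same hours Zc3h12a changed by -0.38, Zfp36 by -0.95, Elavl1 by -0.46, Rc3h1 by -0.02, Zfp36l1 by 0.06 and Zfp36l2 by 0.69, and 0 of 6 passed 2-fold downwards (1.77% of genes). Il6 lay at 3.93, 3.60 and 3.63, near the floor throughout, so no fall in its level could be read. The slope fit called 0 of 6 members between double knockout and wild type (0.138% of all genes; 2 of 6 had an unadjusted p under 0.05), Rc3h1 at 0.48 per doubling of time (adjusted p 0.200) and Zfp36l1 at 0.35 (0.296) being the furthest from 0. Tnf was called at -1.74 per doubling of time (SE 0.13, adjusted p 0.0154), a call lost with linear log2 time and these genotypes alone (0.102).

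The low Elavl1 signal of the double knockout was not shared by all of its probesets. Of 6 Elavl1 probesets, 4 were above the floor on every array. Over the stimulated times the main one (1448151_at) differed from wild type by -1.13 and 1431037_a_at by -1.23. The remaining pair, 1428653_x_at and 1452858_at, differed by -0.22 and -0.21. The rise in wild type was seen by all 4, at 0.98, 0.87, 0.66 and 0.76 at 4 h, but at 2 h it was 0.67, 0.64, 0.15 and 0.26. Without IRAK2, 1428653_x_at read 6.75, then 7.33, 7.38 and 7.36, while 1452858_at was nearly level at 5.32, then 5.32, 5.32 and 5.21. For the mean of all 6 probesets the double knockout differed from wild type by -0.43 (adjusted p 0.0108) and from the IRAK2 knockout by -0.27 (0.0716). The sources used here do not say where each probeset lies in the transcript. For Zfp36l1 the other probeset was under the floor on all arrays, and for Zfp36l2 the second one (1439054_at) read 5.66, then 5.13, 5.69 and 5.65 in wild type, a dip of -0.53 at 2 h beside -1.04 for the main probeset. Without IRAK2 that probeset read 5.40, then 5.34, 5.44 and 5.49, nearly level. Over the stimulated times its double knockout values differed by -0.36 from wild type and -0.29 from the IRAK2 knockout. The main probeset differed by 0.18 and 0.41, the other way.

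**Figure D5:**
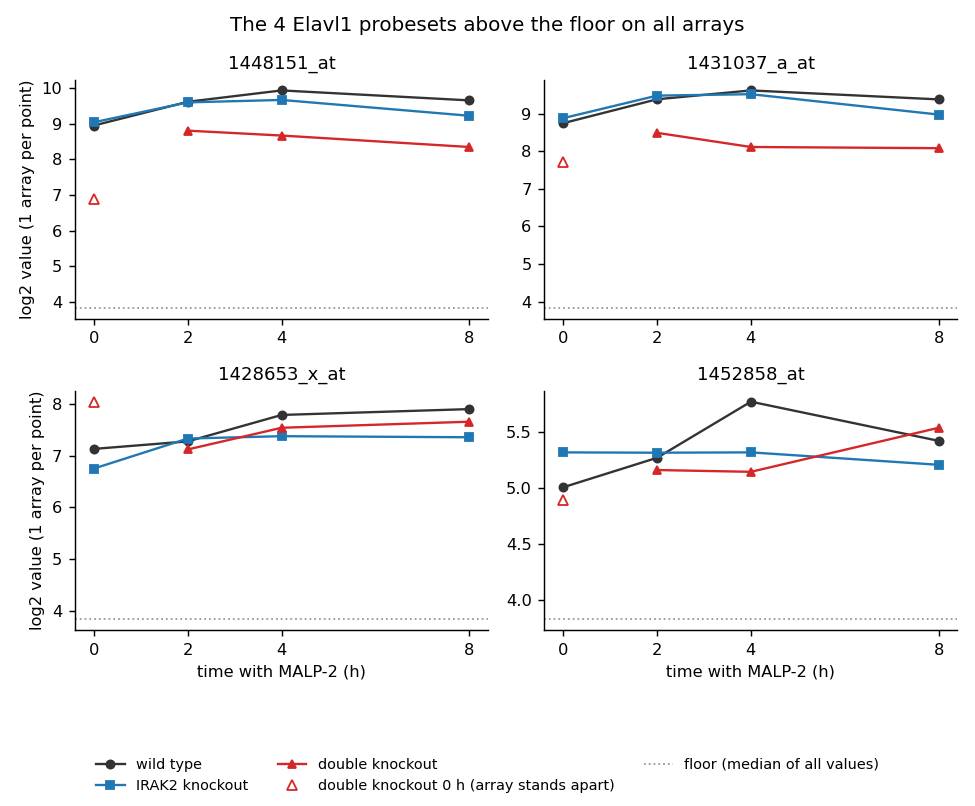
Log2 values against hours with MALP-2 of the 4 Elavl1 probesets that were above the floor on all arrays, 1 array per point. In the upper pair the stimulated double knockout (filled triangles) lies below the other genotypes, by -1.13 and -1.23 against wild type, and in the lower pair it lies among them or close to them.

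Relatives of the members and proteins that act on them were read from lists of 98 further genes, 90 of them on the array. In the response at 2 h, 26 of 89 tested were higher and 13 lower, beside 16.2% and 29.1% of all genes, and their median difference was 0.04 (-0.12 over all genes). Zc3h12c, which encodes a relative of Regnase-1, rose by 3.44 at 2 h (SE 0.18, adjusted p 9.34e-06) and 3.10 at 8 h (1.69e-05). It read 8.99, 9.09 and 8.98 in stimulated wild type. Without IRAK2 it read 9.04, 8.79 and 8.36. The double knockout values were 7.95, 7.30 and 6.29, lower than in wild type by -1.84 (adjusted p 7.47e-04). N4bp1, also listed as a relative, rose by 1.02 at 2 h (2.42e-04).

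Among kinases and proteases that act on these proteins, Malt1, whose product cleaves Regnase-1 and Roquin-1, rose by 3.49 at 2 h (SE 0.12, adjusted p 1.37e-06). It read 11.39, 11.15 and 11.34 in stimulated wild type and 10.75, 10.24 and 10.39 without IRAK2. The double knockout values were lowest, at 9.69, 8.78 and 9.10. Malt1 and Irak2, the deleted gene, were the 2 of 88 tested list genes called between the IRAK2 knockout and wild type, beside 0.765% of all genes. Malt1 was lower by -0.84 (SE 0.14, adjusted p 0.0435), though it was also lower at 0 h (7.25 against 7.91). This call is close to the threshold, and it was not followed under the alternative settings. Mapkapk2, the kinase that phosphorylates tristetraprolin and restrains it, rose by 1.94 at 2 h (8.04e-05) and was lower in the double knockout than in wild type by -1.66 (SE 0.20, adjusted p 4.28e-04). Its wild-type values were 6.57, 6.68 and 6.51 after MALP-2, those of the double knockout 4.68, 4.85 and 5.26. Dusp1, the phosphatase that switches off p38 and so opposes Mapkapk2, rose by 0.99 at 2 h (2.64e-04) and was higher in the double knockout by 0.52 (0.0124).

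Genes of the general decay machinery moved in both directions. Of 19 deadenylation genes tested at 2 h, 3 were higher and 7 lower, where 16.2% of all genes were higher and 29.1% lower. The same shares stand beside the other counts at 2 h given here. Noct, related to deadenylases, rose by 2.97 (5.30e-06), reading 7.17 in wild type at 0 h, then 10.36, 8.46 and 7.27. Btg2, which activates the deadenylase complex, rose by 1.26 (3.26e-04), and its relative Tob1 fell by -1.01 (0.0058). Of 14 decapping genes 4 were higher and 1 lower, and of 14 exosome genes 3 were higher and 1 lower, the exosome nuclease gene Dis3 rising by 0.81 (6.93e-04). Of 18 other genes for proteins that bind messenger tails, 6 were higher and 2 lower at 2 h, and Hnrnpd, which encodes the AU-rich binder AUF1, was higher at 8 h by 0.71 (SE 0.10, adjusted p 0.0013). In the nonsense-mediated decay list, where Upf1 is the helicase that Regnase-1 works with, Upf1 rose by 0.37 at 2 h (0.0188) and Smg5 by 1.04 (4.58e-04). In the double knockout 18 of 88 list genes were higher and 22 lower than in wild type (23.7% and 17.3% of all genes), among the lower ones the Lsm ring genes Lsm3 (-1.06, 4.45e-04) and Lsm6 (-1.03, 0.0038).

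Genes whose levels followed each member most closely over the 11 arrays were named, 3 per member, out of 5121 genes spanning at least 1 log2. These are the best of many and share arrays, times and genotypes, so the correlations are descriptions. For Zc3h12a they were Ccdc71l (Pearson r 0.99), the cyclooxygenase gene Ptgs2 (0.98) and Sde2 (0.98). Ptgs2 read 10.89, 10.77 and 10.63 in stimulated wild type, 10.49, 9.57 and 7.11 without IRAK2, and 6.95, 6.04 and 5.72 with IRAK1 lost as well, the same order of genotypes as for Zc3h12a at each stimulated time. For Zfp36 they were the activation marker gene Cd83 (0.93), Hacd2 (0.91) and Arf4 (0.91), and for Elavl1 Utp11 (0.98), Il18 (0.97) and Denr (0.97). Zfp36l1 was most like Enc1 (0.97), the splicing factor gene Mbnl1 (0.96) and Coro2a (0.96). Zfp36l2 was most like Tmem87b (0.96), the Wnt coreceptor gene Lrp6 (0.96) and Mfsd4b4 (0.96). Rc3h1 had looser companions in the RNA-binding protein gene Taf15 (0.90), the kinase gene Hipk1 (0.90) and the immediate-early gene Egr3 (0.88).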

How the data were processed

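Expression was measured on 12 Affymetrix arrays, 1 per genotype and time. The deposited table holds log2 values for 45101 probesets, made by the authors with RMA per the submitters' processing notes, which name no version. Of the probesets 34958 carried 1 gene symbol in the platform annotation, 932 several and 9211 none or no entry. For 34754 of those with 1 symbol, the symbol was taken from RefSeq through the gene identifier, whether or not it changed. Each gene was read from 1 probeset, and genes with a mean under the floor of 3.83 over the arrays fitted were not tested. Array count, not depth, limits precision. limma 3.58.1 in R 4.3.3 fitted genotype and time on the 9 stimulated arrays (4 residual degrees of freedom), the same terms on the 8 wild-type and IRAK2 knockout arrays (3), and time, genotype and genotype by log2 time on the 9 (2), with Benjamini-Hochberg adjustment over all genes and calls under 0.05. The fits were tested on simulated data. Differences between 2 arrays are sizes without a test; a gene counted as measured when the higher value reached the floor. Named genes are the members, Il6, Tnf and Cxcl1, up to 5 called genes per list and comparison, and the 3 genes most correlated with each member. Members, lists and tests were chosen with earlier results of these data known. Alternatives changed the probeset, the filter, centring, the variance trend and the arrays fitted.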

Additional observations from a re-analysis of the deposited data

Results flagged for a closer look

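Some effects differed between genotypes. The gap of the IRAK2 knockout to wild type changed with time for Il6 by -2.33 log2 per doubling of time (limma slope fit, adjusted p 0.0275), where the 8 h knockout value is under the floor. The gap of the double knockout changed for Tnf by -1.74 (0.0154). For Il6 it changed by -1.46 (0.0447), but Il6 was near the floor on all stimulated double knockout arrays, so this value holds no readable fall of Il6 there. That Il6 call was lost with the mean of all probesets (0.0646) and with linear log2 time (0.118).

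Other effects ran in opposite directions on every array of the genotypes compared, and these differences were not tested. At 4 and 8 h against 2 h, Il6, Tnf and Cxcl1 were higher in wild type and lower in the IRAK2 knockout, with mean differences between the genotypes of -3.62, -1.01 and -2.14 log2. For the double knockout minus wild type the same differences were -2.55 for Tnf and -2.94 for Cxcl1. The main Elavl1 probeset also ran opposite ways (-0.48), though in wild type it was only 0.04 higher at 8 h than at 2 h. Elavl1 probeset 1428653_x_at climbed in both, at 7.28, 7.79 and 7.91 in wild type and 7.12, 7.54 and 7.66 in the double knockout. The difference of -2.43 for Il6 has no readable direction in the double knockout, where Il6 was near the floor. Against 0 h, Elavl1 was higher at all 3 times with IRAK1 present and lower at all 3 in the double knockout on the substitute baseline, mean differences of -1.17 and -0.84. Against the double knockout's own 0 h array Elavl1 was higher instead, by 1.92, 1.78 and 1.46. Its probeset 1428653_x_at read 7.12, 7.54 and 7.66 in the stimulated double knockout, beside 7.13 and 6.75 on the unstimulated wild-type and IRAK2 knockout arrays, and so was not below the average of that pair. Zfp36l2 was below its own 0 h array in wild type and the IRAK2 knockout and above it in the double knockout, by 3.58 and 3.76, which rests on the array labelled double knockout 0 h; on the substitute baseline it was lower (-0.71, -0.39 and -0.02).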

How the results depend on the processing

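The number of genes called between the IRAK2 knockout and wild type, 83, was 44 without probesets ending in _x_at or _s_at, 143 with the 0 h arrays of both genotypes added, 553 with only these genotypes fitted, and 11, 6 and 14 without the 2, 4 or 8 h arrays. For the double knockout, leaving out the 4 h arrays gave 2111 calls against wild type (4458 in the fit reported) and 1572 against the IRAK2 knockout (4214). Its slope fit called 15 genes, and 7 with the mean of all probesets, 41 without a filter, 34 with the floor raised by 1 log2, 132 with an intensity trend and 2 with linear time and these genotypes alone; with that last setting the IRAK2 knockout slope fit called 0 genes instead of 1 (Il6, adjusted p 0.161). Of the 6 members, 3 were at least 2-fold from 0 h in wild type at some time, and 1 with the mean of all probesets and 1 with each member's second probeset where its mean reached the floor (Zfp36l1, whose second did not, stayed on its main probeset). In the double knockout 5 were, against 1 with the mean of all probesets, 3 with second probesets and 1 on the substitute baseline. Among single genes the Zfp36l2 difference between the knockouts reversed, to -0.014, with the mean of its probesets. Of the single-gene values under alternatives, 648 kept their side of the threshold without reversing, 15 lost a call and 20 gained one. Zc3h12a was called in the response and between the double knockout and both other genotypes under every alternative run, and the Elavl1 difference between double knockout and wild type was too (adjusted p 1.19e-04 to 0.0119). No paired analysis was possible because each group holds 1 array. Arrays centred on their medians gave no changed call for the 9 genes, and signal near the floor limits Il6 and the other Zc3h12a probeset.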
